A study of Mus musculus with 39 samples.

Results

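Whole AB1-HA tumours of 6 mice that were cured by tretinoin plus immune checkpoint therapy (ICT) were compared with those of 10 mice given ICT alone, out of 39 tumours sequenced in the series. The members were taken from the deposited labels: combination tumours marked as responders (AB22, AB24, AB41, AB42, AB43 and AB45) and all tumours marked ICT (AB61 to AB65 and AB81 to AB85). AB1-HA cells, a murine mesothelioma line engineered to express influenza haemagglutinin, were grown under the skin of BALB/c mice. By the labels, responders received 5 intraperitoneal doses of 5 mg/kg tretinoin (all-trans retinoic acid) from day 4. The paper's methods give 5 days of tretinoin before resection, while a figure caption gives 4 doses. Both groups received ICT from day 7, which was 100 µg each of antibodies to CTLA-4 and PD-L1. A tumour was resected from every mouse on day 9. In the combination mice a tumour on the other flank stayed in place. Complete cure of that tumour defined a responder and its outgrowth a non-responder, of which there were 4 (AB21, AB23, AB25 and AB44). The ICT tumours carry no outcome label. Responders therefore differ from the ICT tumours both in tretinoin and in having been selected by outcome, and these cannot be told apart in this comparison. For orientation, the report also uses the 4 non-responders, 9 tumours given tretinoin alone and 10 given PBS. By the labels, tretinoin alone was also 5 doses of 5 mg/kg from day 4, while the paper's figure captions give both 10 and 5 mg/kg for it. The methods state mice of both sexes aged 8 to 10 weeks, and the labels give no sex or age for a single tumour.

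Tretinoin binds the retinoic acid receptors, nuclear receptors that switch on genes near their binding sites. Among the best known targets are genes that dispose of retinoids, so these genes are commonly read as a sign of exposure. Checkpoint antibodies release T cells from inhibition. Activated T cells secrete interferon-gamma, which raises antigen presentation and chemokines in tumours, and other helper T cells secrete type 2 cytokines such as IL-4, IL-5 and IL-13, which recruit eosinophils and steer macrophages to an alternative state. AB1-HA tumours, like other tumours, hold many macrophages, and some macrophages can fuse into osteoclast-like giant cells. In RNA of whole tumours, fewer cells of a type and less RNA per cell cannot be told apart.

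Total counts ranged from 15565521 to 37951183 in responders (the highest in AB45, the next highest 23315096) and from 14033046 to 21095905 in ICT tumours. Principal components of the 16 tumours were taken from their 500 most variable genes, and the first held 34.6% of the variance. Responders AB43 and AB45 stood low on it (-3.52 and 4.57) against 17.9 to 26.4 for the other 4 responders. ICT tumours AB63 and AB82 stood high (16.03 and 12.15), whereas the other 8 ICT tumours lay between -28.3 and -4.60. Many of the results below are therefore also given without AB63 and AB82, or without AB43. These tumours were picked by their place in the same data, so such values describe the remaining tumours and are not separate support. The first digit of a tumour's name makes the series 2 and 4 in responders and 6 and 8 in ICT tumours, so the series cannot be separated from treatment.

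Of 14505 genes tested with edgeR, 128 were higher (0.882%) and 30 lower (0.207%) in responders than in ICT tumours at an adjusted p below 0.05 and a log2 fold change (log2FC) of 1 or more in size, 158 in all (1.09%). The median log2FC of the called genes was 1.35 for those higher and -1.33 for those lower. Without the fold change minimum, 480 genes were higher (3.31%) and 300 lower (2.07%). Every responder lay above every ICT tumour for 84 of all genes tested (0.579%) and below every ICT tumour for 40 (0.276%), and 26 of the 128 and 6 of the 30 called genes were among these. Of the called genes, 25 of those higher and 4 of those lower were pseudogenes or gene models without a name. The counts were sensitive to single tumours. They were 348 higher and 51 lower without AB63, 240 and 56 without AB43, and 501 and 63 without both AB63 and AB82. Without AB24 or AB42 79 genes were higher, without AB41 82, and lower genes dropped to 19 without AB22, 18 without AB24, 12 without AB41 and 9 without AB42.

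**Figure D1:**
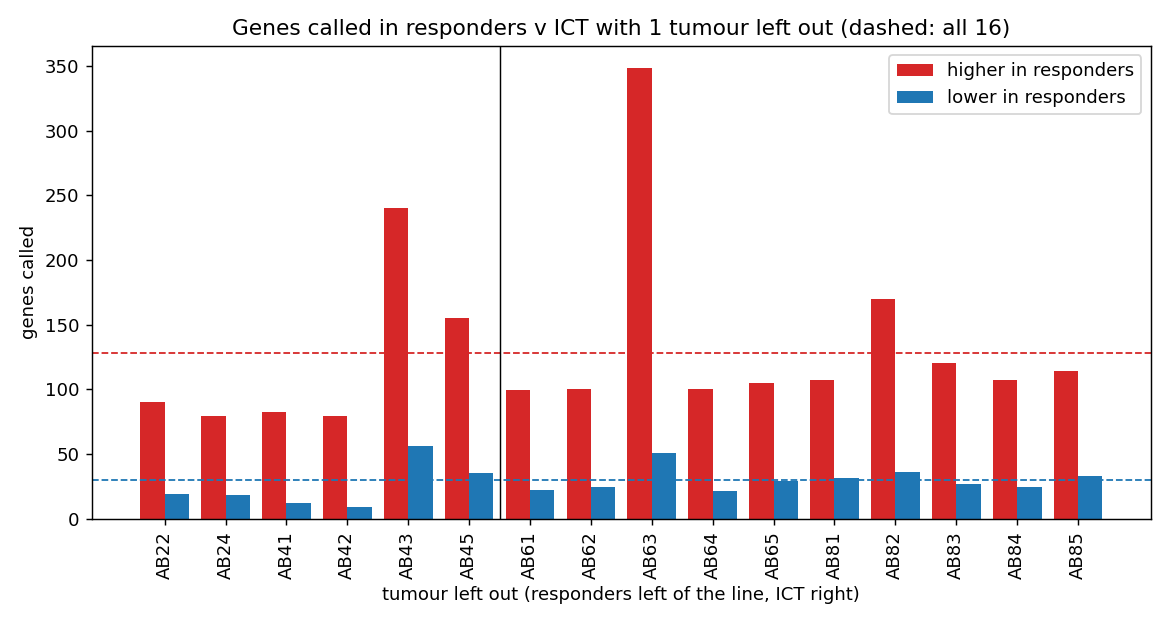
Number of genes called higher (red) and lower (blue) in responders than in ICT tumours (y axis) when the tumour on the x axis was left out, with dashed lines for all 16 tumours (128 and 30). Leaving out ICT tumour AB63 gave 348 higher genes and leaving out responder AB43 gave 240, whereas each of the responders AB22, AB24, AB41 and AB42 gave between 79 and 90.

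Genes of retinoid handling and response were higher in responders, and 3 of them are described in full here. Of 21 retinoid metabolism, binding and receptor genes found, 20 were tested, and 8 were higher and none lower at an edgeR adjusted p below 0.05, with a median log2FC of 0.42 against 0.01 for all genes. Cyp26b1 (chromosome 6, 84571414 to 84593908 on GRCm38), whose enzyme degrades retinoic acid, had 2063, 2647 and 3110 normalized counts as the lowest, median and highest responder, and 118, 290 and 603 in ICT tumours. The groups did not overlap, and the log2FC was 3.03 (standard error 0.27, edgeR adjusted p = 6.02e-06). Dhrs3 (chromosome 4, 144892827 to 144928209 on the same build), a retinal reductase that turns retinoids towards storage, had 3003, 3148 and 3728 normalized counts in responders and 790, 1095 and 1368 in ICT tumours. It had the smallest adjusted p of all genes (log2FC 1.59, standard error 0.11, edgeR adjusted p = 5.3e-07). Tgm2, a transglutaminase gene induced by retinoic acid in macrophages, had 11479 to 23797 normalized counts in responders and 2497 to 8141 in ICT tumours, again without overlap (log2FC 1.67, edgeR adjusted p = 0.000473).

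The receptor and carrier genes of the list differed less. Rarg, which encodes retinoic acid receptor gamma, had a log2FC of 0.61 (2215 to 3134 against 1486 to 1987 normalized counts, edgeR adjusted p = 0.000581), and Rara, the alpha receptor gene, one of 0.42 (edgeR adjusted p = 0.0369). Crabp2, a retinoic acid carrier, had one of 0.56 (edgeR adjusted p = 0.00706). Every responder lay above every ICT tumour for Rarg and Crabp2. Aldh1a2 encodes an enzyme that makes retinoic acid, and it had 286, 228, 204, 208, 57.8 and 181 normalized counts in AB22, AB24, AB41, AB42, AB43 and AB45. The highest ICT tumour was AB63 at 143, so 5 of 6 responders were above all ICT tumours and AB43 was not (log2FC 1.35, edgeR adjusted p = 0.018). Without AB22 its edgeR adjusted p was 0.0538, and that of Rara reached 0.104 with a tumour left out. Nrip1, a corepressor of nuclear receptors, and Hic1, a transcriptional repressor, were picked after their values were seen. They had log2FC values of 1.38 and 1.31 (edgeR adjusted p = 1.32e-06 and 0.00281), and Calcb, the gene of beta-CGRP, one of 1.78 (edgeR adjusted p = 0.00571).

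**Figure D2:**
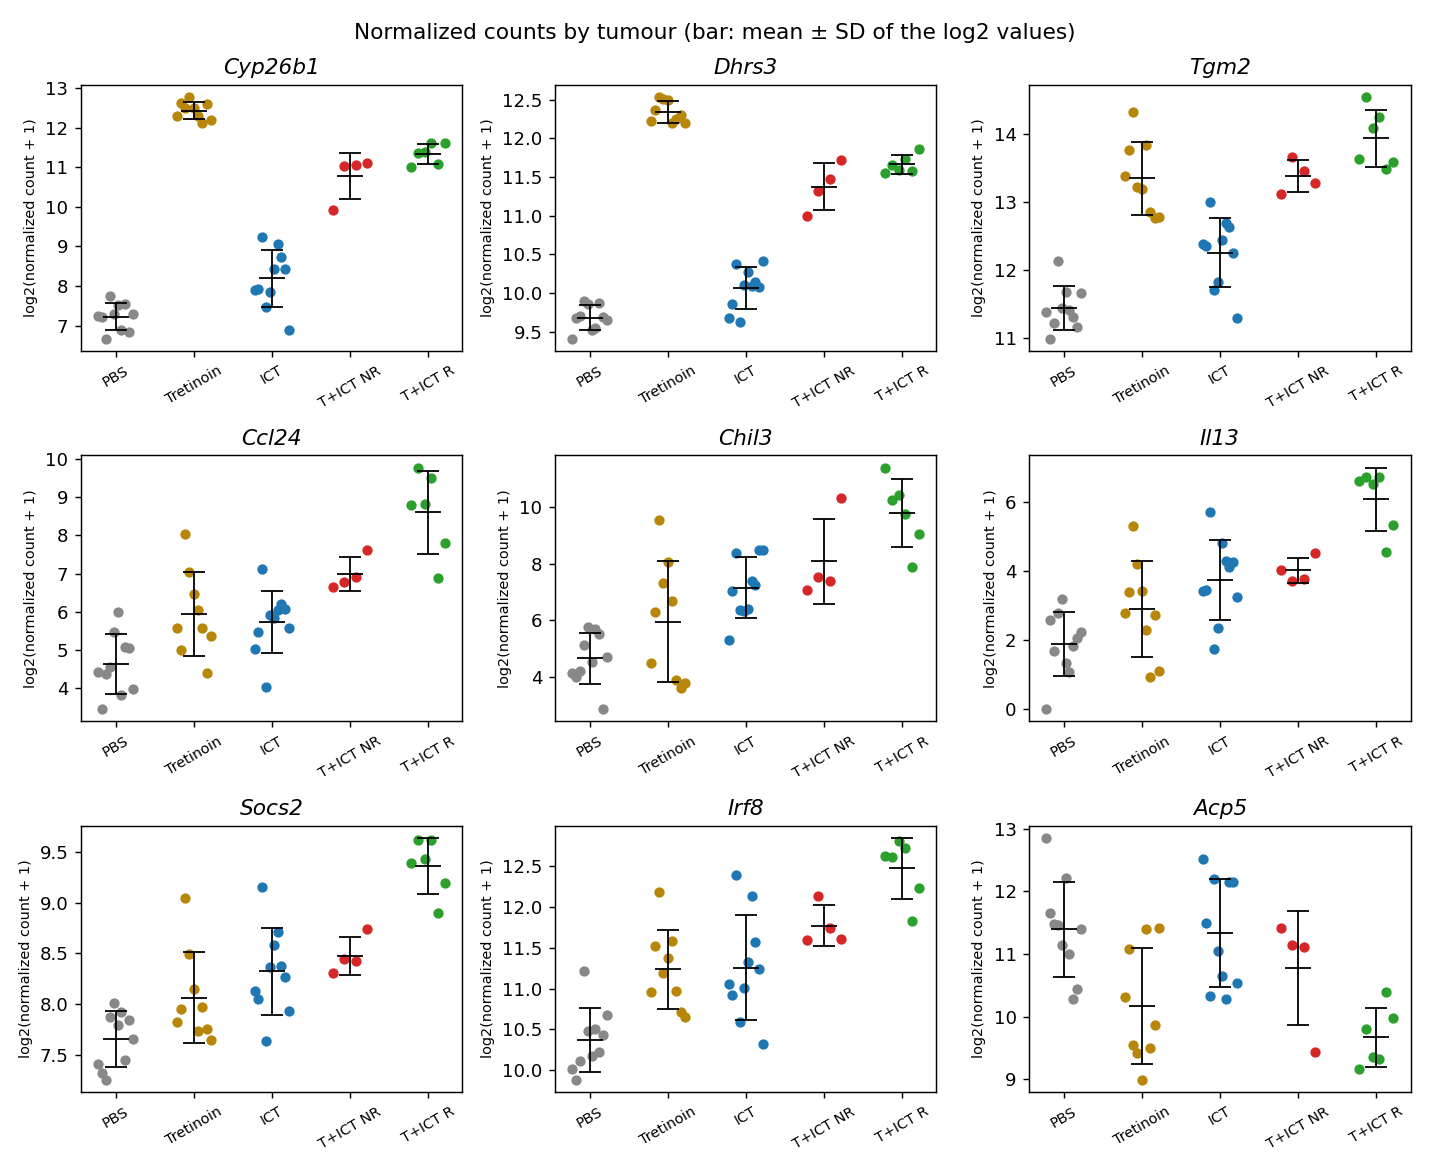
Normalized counts of 9 genes on a log2(count + 1) scale (y axis) in every tumour of the 5 groups (x axis; T+ICT R are responders and T+ICT NR non-responders), with mean and SD of the log2 values. Cyp26b1, Dhrs3 and Tgm2 did not overlap between responders and ICT tumours, whereas Ccl24, Chil3, Il13, Socs2, Irf8 and Acp5 overlapped in a few tumours.

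Type 2 cytokine and alternative macrophage genes were also higher in responders. Of 23 genes found, 21 were tested, and 11 were higher and none lower at an edgeR adjusted p below 0.05, 8 of them at a log2FC of at least 1, with a median log2FC of 1.36. Il13, the gene of interleukin-13, had 96.5, 103, 91.0, 105, 22.4 and 39 normalized counts in AB22, AB24, AB41, AB42, AB43 and AB45, and 2.35, 13.1 and 51.2 as the lowest, median and highest ICT tumour. The 4 high responders lay above all ICT tumours, and AB63, the highest ICT tumour, lay above AB43 and AB45 (log2FC 2.197, standard error 0.46, edgeR adjusted p = 0.0108). Il5, the eosinophil growth factor, had 7.07 to 34.4 normalized counts in responders and 2.97 to 15.6 in ICT tumours. It was below the count filter with all tumours and was not tested. Without AB43 it passed the filter, with a log2FC of 1.89. As AB43 was set aside for where it stood in the same data, this value is not separate support. Il4 and the alarmin Il33 did not pass the test (log2FC values 0.36 and 0.58, edgeR adjusted p = 0.0999 and 0.0845).

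Among the effectors of this list were chemokines. Ccl24 (eotaxin-2), which attracts eosinophils, had 118, 448 and 875 normalized counts in responders and 15.3, 58.2 and 139 in ICT tumours. Only AB63 among ICT tumours exceeded the lowest responder, AB43 (log2FC 2.995, standard error 0.40, edgeR adjusted p = 0.000473). Ccl17, a ligand of CCR4 made by dendritic cells and macrophages, had 286 to 744 normalized counts in responders and 71.7 to 408 in ICT tumours (log2FC 1.60, edgeR adjusted p = 0.00703). Its neighbour Ccl22 and the eotaxin Ccl11 passed without reaching a doubling (log2FC values 0.97 and 0.89, edgeR adjusted p = 0.0469 and 0.0457), as did Il4ra, the shared receptor chain of IL-4 and IL-13 (0.53, edgeR adjusted p = 0.0214).

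Several genes of alternatively activated macrophages and eosinophils were higher too. Chil3 (Ym1), a chitinase-like protein of such macrophages and of monocytes, had 2684, 1220, 1362, 853.5, 237.0 and 522.5 normalized counts in the responders in the order of their names, and 38.9, 140 and 360 as the lowest, median and highest ICT tumour. AB43 lay within the ICT range and the other 5 above it (log2FC 2.69, standard error 0.49, edgeR adjusted p = 0.005). The macrophage lectin Mgl2 (1.51), the eosinophil-associated ribonuclease Ear2 (1.53), the lipoxygenase Alox15 (1.46) and the cyclooxygenase Ptgs1 (1.36) had edgeR adjusted p of 0.0042, 0.00691, 0.0219 and 2.45e-05. Ptgs1 alone of these did not overlap, with 897 to 1159 normalized counts in responders and 290 to 524 in ICT tumours. From the marker list of mast cells, basophils and eosinophils, 2 of 7 tested genes were higher, where 3.31% of all genes were. These were Prg2, the major basic protein of eosinophils (19.5 to 40.9 against 0 to 14.9 normalized counts, log2FC 2.29, edgeR adjusted p = 0.00328), and Ccr3, the eotaxin receptor (1.10, edgeR adjusted p = 0.0231). The summed level of the 8 found genes of that list was 1698 to 2781 in responders and 1663 to 2749 in ICT tumours, so the list as a whole overlapped. The calls of Alox15 and Ccr3 were lost without AB22, AB24, AB41 or AB42, and leaving out a tumour took Ccl22, Ccl11 and Il4ra to edgeR adjusted p of as much as 0.113, 0.121 and 0.072. Of the 6 monocyte markers tested, 2 were higher (3.31% of all genes were), Chil3 itself and Plac8 (0.85, edgeR adjusted p = 0.0458). The monocyte list had a median of 0.82 and summed levels of 23453 to 40044 in responders and 18879 to 34515 in ICT tumours. Its part in the result was not tested. Without AB43, 19 of 23 tested type 2 genes were higher, where 6.7% of all genes were. AB43 had the lowest summed level of this list among responders (36901) and was set aside for where it stood in the same data. That count therefore describes the remaining tumours and is not separate support. Without AB63 and AB82, 18 of 22 type 2 genes and 4 of 6 monocyte markers were higher, where 17.4% of all genes were. Mrc1 and Cd163, which also mark alternative macrophages, did not pass in this setting (log2FC values 0.18 and -0.01, edgeR adjusted p = 0.327 and 0.976). Nor did they without AB43 (0.16 and 0.11, edgeR adjusted p = 0.408 and 0.776).

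Several single genes of cytokine signalling were called too, of which Cish, Socs2, Pim1, Bcl3 and Irf4 are named here after their values were seen and stand for no list. Csf2, which encodes the growth factor GM-CSF, had 62.98, 72.98, 86.75, 81.04, 29.47 and 65 normalized counts in the responders in the order of their names. In ICT tumours it had 3.19 to 54.5, and AB63 was again the highest (log2FC 1.68, edgeR adjusted p = 0.0265). Cish and Socs2, feedback inhibitors of cytokine signalling, had log2FC values of 1.12 and 1.02 (edgeR adjusted p = 0.0322 and 0.0043), and the kinase Pim1 one of 1.32 (edgeR adjusted p = 0.00484). Bcl3, a cofactor of NF-kappaB, and Irf4, a transcription factor of activated lymphocytes and alternative macrophages, followed at 1.18 and 1.11 (edgeR adjusted p = 0.00107 and 0.00719). Il1a, an alarmin cytokine, had 95.5 to 198 normalized counts in responders and 4.26 to 107 in ICT tumours (log2FC 2.21, edgeR adjusted p = 0.0118). Of the 17 tested inflammatory cytokine and prostaglandin genes, only Csf2 and Il1a passed with all tumours, where 3.31% of all genes were higher. Without AB63 and AB82 9 were higher, where 17.4% of all genes were. The calls of Csf2 and Cish were lost without AB22, AB24, AB41 or AB42, Cish also without AB61, AB62, AB65 or AB84, and that of Socs2 without AB24, AB42, AB61, AB62, AB64 or AB85, where its log2FC was under 1.

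Interferon-gamma response genes were higher on average in responders, but few passed the test. All 32 tested genes had positive log2FC values with a median of 0.999, and 3 passed, where 3.31% of all genes were higher. These were Irf1 (1.04), Irf8 (1.13) and Wars (0.99), with edgeR adjusted p of 0.0433, 0.0212 and 0.0212. Irf1, a transcription factor induced by interferon-gamma, had 17410, 20000, 24670, 22050, 12780 and 13570 normalized counts in the responders in the order of their names, and 2629, 9008 and 16710 as the lowest, median and highest ICT tumour. Every responder was above 9 of the 10 ICT tumours, the exception being AB63. The chemokine Cxcl9 and Cd274 (PD-L1) had log2FC values of 1.002 and 1.04 without passing (edgeR adjusted p = 0.175 and 0.144). The summed level of the 32 genes was 263728 to 533114 in responders, 391533 in AB63, 281768 in AB82 and 37788 to 262235 in the other 8 ICT tumours. Without AB63 and AB82, 31 of the 32 genes were higher, against 2504 of 14378 genes in all, and the list's median log2FC moved from 0.999 to 1.2. As these ICT tumours were set aside for where they stood in the same data, the second count describes the other 14 tumours and is not separate support. Batf2, an interferon-induced factor that was picked after its values were seen, had a log2FC of 1.18 (edgeR adjusted p = 0.0492). The calls of Irf1 and Batf2 were each lost on leaving out 12 of the 16 tumours in turn, and that of Irf8 without AB24, AB41 or AB42. Leaving out a single tumour took the adjusted p of Wars to as much as 0.071 (edgeR).

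The promoters of Irf1, Irf8 and Cish are shown because these genes are textbook targets of STAT factors, which carry cytokine signals to the nucleus, and all 3 were called here. Each sequence runs from 250 bases before to 50 bases after the gene's start in RefSeq on GRCm38.p6, on the plus strand, and capitals mark TTCNNNGAA, the letters of the STAT motif, which reads the same on both strands.
Irf1, chr11:53769764-53770063: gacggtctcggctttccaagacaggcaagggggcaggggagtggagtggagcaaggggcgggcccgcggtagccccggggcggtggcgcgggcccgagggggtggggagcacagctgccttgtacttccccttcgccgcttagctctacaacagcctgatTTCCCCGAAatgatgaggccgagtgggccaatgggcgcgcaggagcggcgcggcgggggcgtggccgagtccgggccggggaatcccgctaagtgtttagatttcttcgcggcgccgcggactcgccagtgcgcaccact
Irf8, chr8:120736108-120736407: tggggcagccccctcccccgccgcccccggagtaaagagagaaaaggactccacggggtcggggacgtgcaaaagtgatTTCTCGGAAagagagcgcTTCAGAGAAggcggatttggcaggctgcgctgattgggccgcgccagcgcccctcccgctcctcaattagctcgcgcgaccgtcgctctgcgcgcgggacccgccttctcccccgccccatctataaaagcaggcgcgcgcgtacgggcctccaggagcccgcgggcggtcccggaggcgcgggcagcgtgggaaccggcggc
Cish, chr9:107296409-107296708: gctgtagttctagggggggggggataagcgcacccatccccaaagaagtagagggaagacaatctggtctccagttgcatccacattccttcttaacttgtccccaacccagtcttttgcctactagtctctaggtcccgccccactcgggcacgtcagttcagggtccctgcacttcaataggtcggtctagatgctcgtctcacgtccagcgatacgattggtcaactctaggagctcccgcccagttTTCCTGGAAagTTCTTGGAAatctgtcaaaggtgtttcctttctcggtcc
Irf1 holds 1 match, and Irf8 and Cish hold 2 each. A promoter was found for 85 of the 128 higher genes, of which 12 held the motif (14.1%), and for 19 of the 30 lower genes, of which 1 did (5.26%). Of all 32851 promoters in the table, 2726 held it (8.3%). The 3 genes shown are among the 12, whereas Socs2, Pim1 and Bcl3, also called and named above, are not, for want of a match or of a promoter. The direct repeat of 2 retinoic acid half-sites (AGGTCA or AGTTCA) at a spacing of 5 bases was in 0 of the 85 windows and in 13 of all promoters (0.0396%), which says only that these letters are not in these windows. The matches are a description and no binding was measured.

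T cell, antigen presentation and antiviral lists gave few or no calls with all tumours. Of 11 pan T cell genes, 10 MHC class II genes and 22 antiviral effector genes of type I interferon, 0 passed in edgeR, with median log2FC values of 0.39, 0.62 and 0.27. Among 13 tested CD8 and cytotoxic genes, 2 were higher, where 3.31% of all genes were. These were Tbx21 (T-bet), the transcription factor of type 1 effector lymphocytes (127 to 306 against 30.9 to 205 normalized counts, log2FC 1.36, edgeR adjusted p = 0.0205), and Klrg1, a receptor of effector T and NK cells (1.30, edgeR adjusted p = 0.0108). Il21r, the interleukin-21 receptor and outside the lists, had a log2FC of 1.25 (edgeR adjusted p = 0.00385). Cd8a itself did not pass the test, with 333, 243, 213, 191, 114 and 116 normalized counts in the responders and 64.9, 113 and 608 as the lowest, median and highest ICT tumour (log2FC 0.01, edgeR adjusted p = 0.99). Foxp3, the regulatory T cell factor, had one of 0.11 (edgeR adjusted p = 0.789).

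ICT tumours AB63 and AB82 stood apart for these lists. Their summed pan T cell counts were 5913 and 5197, above all responders (2262 to 4114), and the other 8 ICT tumours had 1515 to 2330. The MHC class II sums were 183609 and 160527 in these tumours, 69152 to 160363 in responders and 32796 to 76351 in the other ICT tumours. Without AB63 and AB82, all 11 pan T cell genes, all 10 MHC class II genes and 10 of 13 CD8 and cytotoxic genes were higher in responders, where 17.4% of all genes were. Of the antiviral genes 3 of 22 were higher, which is not above that share. Cd8a then had a log2FC of 0.85 (edgeR adjusted p = 0.0181). As AB63 and AB82 were set aside for where they stood in the same data, these values describe the remaining tumours and are not separate support. Without AB43, 0 pan T cell and 0 MHC class II genes passed. Of 11 dendritic cell markers, 8 were higher without AB63 and AB82 (17.4% of all genes were) and 2 with all tumours (3.31% of all genes were). The 2 were Clec9a and Batf3 (1.15 and 1.43, edgeR adjusted p = 0.0271 and 0.0337), which mark the dendritic cells that present antigen to CD8 T cells. Their calls were lost on leaving out AB22, AB24, AB41, AB42 or AB61, Batf3 also with AB62, AB64, AB65, AB81 or AB84, and that of Tbx21 without AB22, AB41 or AB42.

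**Figure D3:**
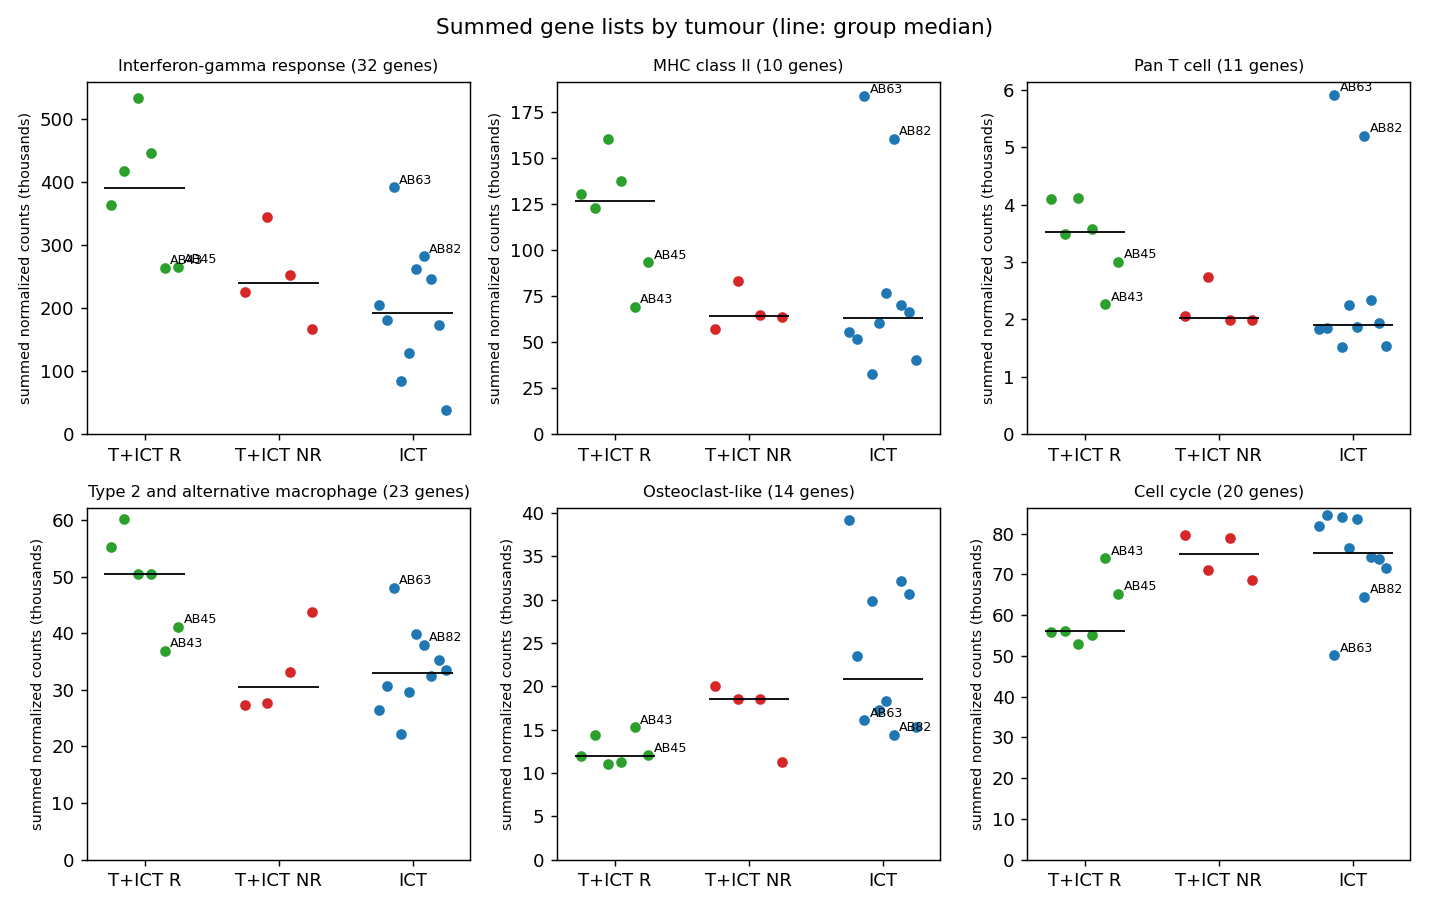
Summed normalized counts, divided by 1000 (y axis), of 6 gene lists in each responder (T+ICT R), non-responder (T+ICT NR) and ICT tumour (x axis), with a line at the group median and 4 tumours named. AB63 and AB82 lie above all responders for pan T cell genes, and AB43 and AB45 are the lowest responders for 4 of the immune lists.

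Genes of osteoclast-like giant cells were lower in responders. Of 14 found, 13 were tested, and 0 were higher and 7 lower at an edgeR adjusted p below 0.05, with a median log2FC of -0.79. By sign alone, 10 had negative and 3 had positive log2FC values. Acp5 (TRAP), the acid phosphatase that defines osteoclasts, had 575, 897, 656, 641, 1339 and 1007 normalized counts in the responders in the order of their names, and 1249, 2508 and 5861 as the lowest, median and highest ICT tumour. All responders but AB43 lay below every ICT tumour (log2FC -1.82, standard error 0.37, edgeR adjusted p = 0.0103). Oscar, an osteoclast receptor, was low throughout, with 1.03 to 5.89 normalized counts in responders and 6.08 to 35.8 in ICT tumours, which did not overlap (log2FC -2.37, edgeR adjusted p = 0.00706). The proton pump subunit Atp6v0d2, the collagen-degrading protease Ctsk, the transcription factor Spic and the transferrin receptor Tfrc had log2FC values of -1.63, -1.55, -1.11 and -0.79 (edgeR adjusted p = 0.0137, 0.0194, 0.0165 and 0.00732). Tnfrsf11a (RANK), the receptor that drives osteoclast formation, was the seventh. Without AB63 and AB82, 9 of 12 tested genes were lower and 2 higher, where 15.6% of all genes were lower. The higher genes were Car2 (log2FC 0.77, edgeR adjusted p = 0.00774) and Itgb3 (0.29, edgeR adjusted p = 0.0288). Without AB43, 9 of 14 were lower and 1 higher, where 5.92% of all genes were lower. The higher gene was again Car2 (log2FC 0.70, edgeR adjusted p = 0.0455). The call of Ctsk was lost without AB22, AB41 or AB42, and that of Spic without AB42 or AB63. The 7 general macrophage markers tested gave 0 calls in either direction, with a median log2FC of 0.18, and 4 were higher without AB63 and AB82 (17.4% of all genes were). Their summed level was 83413 to 104447 in responders and 53469 to 101332 in ICT tumours.

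Several of the genes with the largest decreases lay outside that list. The sodium-proton exchanger Slc9b2, also abundant in osteoclasts, had the largest decrease among called genes with a mean log2 CPM of at least 1 and a proper symbol (40.9 to 164 against 107 to 1060 normalized counts, log2FC -2.34, edgeR adjusted p = 0.0154). The myeloid receptor Cd300e (-2.20), the cytochrome Cyp2s1 (-1.63), Mfap3l (-1.59), the homeobox gene Lhx9 (-1.55), the autophagy-related Rufy4 (-1.51), the lipid transporter Abcb4 (-1.37), Btbd11 (-1.36) and Tm4sf19 (-1.31) also fell, with edgeR adjusted p between 0.0137 and 0.0381. Rufy4 was the only one of these 8 without overlap, at 22.2 to 40.0 normalized counts in responders and 42.4 to 177 in ICT tumours. Calls were lost without AB42 for Slc9b2, without AB22, AB41 or AB42 for Cd300e and Abcb4, without AB24, AB41 or AB42 for Lhx9, and without AB22, AB24, AB41 or AB42 for Rufy4. Btbd11 lost its call on leaving out 7 tumours in turn and Cyp2s1 on leaving out 10.

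Other genes with large increases included products of granulocytes. Prtn3, a neutrophil protease, had 20 to 132 normalized counts in responders and 1.17 to 34.5 in ICT tumours (log2FC 2.15, edgeR adjusted p = 0.00827), and Padi4, an enzyme that citrullinates histones in neutrophils, had a log2FC of 1.91 (edgeR adjusted p = 0.00796). The 6 neutrophil markers tested gave 0 calls and a median of 0.36, and their summed level over 10 found genes overlapped (2427 to 4844 in responders and 1260 to 5003 in ICT tumours). G0s2, an inhibitor of lipolysis, had 164 to 423 against 28.2 to 77.8 normalized counts (2.38, edgeR adjusted p = 2.07e-05), and the ubiquitin ligase subunit Asb2 and the small GTPase Rab20 had log2FC values of 1.76 and 1.71 (edgeR adjusted p = 0.000581 and 0.000845). G0s2, Asb2 and Rab20 did not overlap between the groups. The NAD-consuming ectoenzyme Cd38, a gene that retinoic acid induces, had 914 to 2361 against 119 to 1344 normalized counts, with AB63 and AB82 above the lowest responder (1.91, edgeR adjusted p = 0.0269), and its call was lost without AB22, AB24, AB41, AB42 or AB61.

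The remaining lists held few calls with all tumours, where 3.31% of all genes were higher and 2.07% lower. A single call among 18 or 20 genes is near these shares. Some of these lists held many more without AB63 and AB82. The chemokine Ccl6 was the only one of 18 monocyte and neutrophil chemokines to pass with all tumours (1.02, edgeR adjusted p = 0.0314). Without AB63 and AB82 8 were higher and 1 lower, where 17.4% of all genes were higher and 15.6% lower. Egr2, a transcription factor of activated T cells and macrophages, was 1 of 4 higher genes among 15 immediate early and heat shock genes (1.24, edgeR adjusted p = 0.00473). Wt1, a mesothelial marker and 1 of 6 tested, was higher in 5 of 6 responders than in every ICT tumour, AB43 being the exception (1.38, edgeR adjusted p = 0.0242), and the summed level of the 10 found mesothelial genes overlapped (68115 to 82736 against 64780 to 88884). The call of Wt1 was lost without AB22, AB24, AB41 or AB42, and that of Ccl6 on leaving out 9 tumours in turn. Of 20 cell cycle genes 1 was lower, with a median log2FC of -0.32, and without AB63 and AB82 17 were lower and 0 higher, where 15.6% of all genes were lower. In that setting 17 of 22 complement and coagulation genes were higher (2 with all tumours), and 13 of 18 checkpoint ligand and receptor genes (1). So were 13 of 16 hypoxia and glycolysis genes (2), with 1 lower in both settings. Of regulatory and helper T cell genes 10 of 14 were higher (0), and of retinoid-imprinted gut-homing genes 7 of 8 (1).

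The B cell, NK cell, adipocyte, keratinocyte, erythroid and skeletal muscle markers gave 0 calls with all tumours. Without AB63 and AB82, 17.4% of all genes were higher and 15.6% lower. In that setting all 7 NK cell, 4 of 10 skeletal muscle and 4 of 9 B cell markers were higher, and 1 B cell marker was lower. Of the adipocyte markers 1 of 8 was higher in that setting, which is not above the share of all genes. Skeletal muscle genes had a median log2FC of 0.42, and their summed level was 16095 to 32729 in responders and 7721 to 30805 in ICT tumours. Among 10 endothelial markers 4 were higher with all tumours (3.31% of all genes were), none of them 2-fold. Their list had summed levels of 5636 to 6720 in responders and 4914 to 5785 in ICT tumours. The part of these cell types in the results was not tested.

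**Figure D4:**
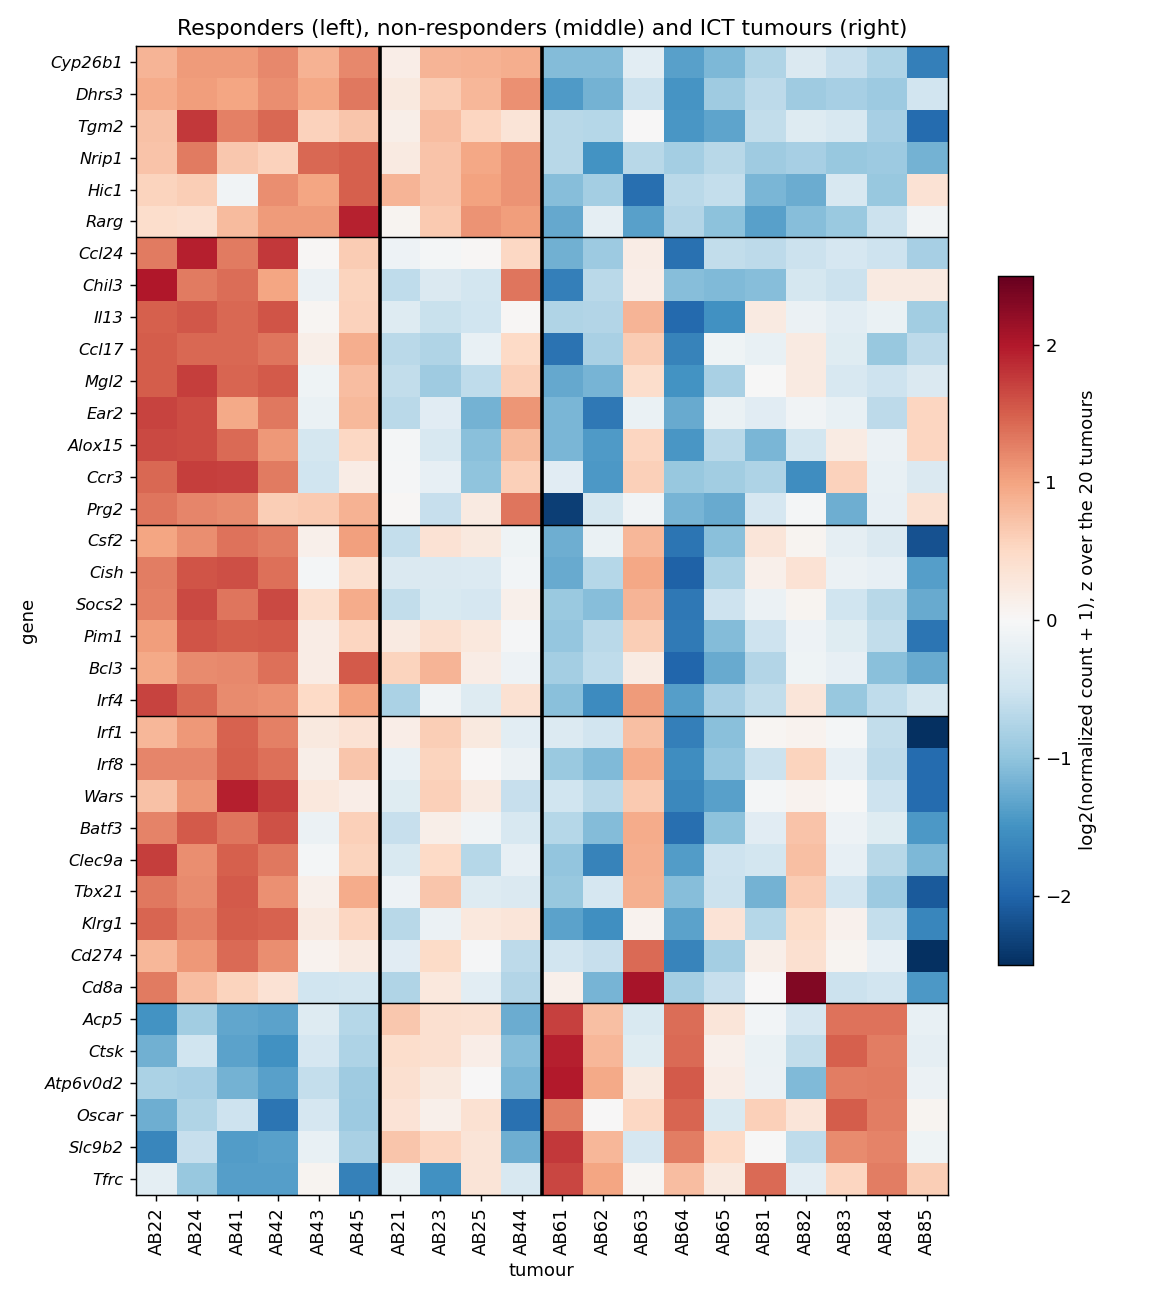
Normalized counts of 36 genes (y axis) in responders, non-responders and ICT tumours (x axis, separated by thick lines), as z scores of log2(count + 1) over these 20 tumours. From top to bottom the blocks are retinoid-related, type 2 and eosinophil, cytokine-signalling, interferon and lymphoid, and osteoclast-like genes, and the retinoid block is high in both groups given tretinoin and low in ICT tumours, as for Nrip1 (1731 to 2693 in responders, 1454 to 2256 in non-responders and 634 to 939 in ICT tumours).

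Non-responders received the same treatment as responders, so their own difference from the same ICT tumours is set beside it. In edgeR 12 genes were higher (0.082%) and 0 lower in non-responders than in ICT tumours (38 higher, 0.26%, and 1 lower, 0.00684%, without the log2FC minimum), with 534 and 335 at an unadjusted p below 0.05 and 22 and 5 called by DESeq2. Of these 12, 11 were also called in responders, among them Cyp26b1 (log2FC 2.52), Dhrs3 (1.31), Nrip1 (1.18), Hic1 (1.36) and G0s2 (1.81). Over the 120 of the 128 higher genes that were tested in both, the median log2FC was 1.35 in responders and 0.62 in non-responders, and 116 were positive in non-responders. Over the 30 lower genes it was -1.33 and -0.47. Type 2 and alternative macrophage genes had a median of 1.36 in responders and 0.01 in non-responders, where 0 of 21 passed. The interferon-gamma list had 0.999 and 0.29, MHC class II genes 0.62 and -0.19, retinoid genes 0.42 and 0.27, and osteoclast-like genes -0.79 and -0.55. These comparisons share the ICT tumours. The 128 and 30 genes were also selected by their difference in responders, so their smaller medians in non-responders follow in part from that selection.

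Single genes of the type 2 list varied among non-responders. Ccl24 had 100, 109, 119 and 196 normalized counts in the non-responders, all above the ICT median of 58.2 and below every responder but AB43 (118). Chil3 had 134, 185 and 165 in AB21, AB23 and AB25 and 1272 in AB44. AB44 also had the lowest Acp5 of the group (693, against 2216 to 2740 in the other 3), so this non-responder lay among the responders for both genes.

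Tested directly, no gene passed between responders and non-responders in edgeR, where the smallest adjusted p was 0.0822, 1979 genes were higher and 1361 lower at an unadjusted p below 0.05, and DESeq2 called 107 and 13. Without AB43, edgeR called 187 higher and 26 lower. Of the 128 genes higher in responders than in ICT tumours, 124 had a positive log2FC over non-responders, and 86 of them had an unadjusted p below 0.05. As this contrast shares the responders, these counts are not separate support. Socs2 and Il13 had log2FC values of 0.90 and 2.28 over non-responders, Ccl17 one of 1.39, and Cyp26b1 and Hic1 ones of 0.51 and -0.05. Whether a gene that passed against ICT in responders only differs between the outcomes thus depended on the tool and on AB43.

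Tretinoin given without ICT was compared with PBS in 19 other tumours, none of which is in the comparison above. Here 219 genes were higher (1.53%) and 24 lower (0.167%) of 14340 tested, 243 in all (1.69%). Of the 128 genes higher in responders than in ICT tumours, 110 were tested with tretinoin alone, 108 had the same sign and 72 were also called, which is 56.2% of the 128 and 32.9% of the 219. Of the 30 lower genes 29 were tested, 27 had the same sign and 10 were also called (33.3% of the 30 and 41.7% of the 24). The interferon-gamma list had a median log2FC of 1.16 with tretinoin alone, where 27 of 32 passed an edgeR adjusted p below 0.05 (11.7% of all genes did, upwards). Of the type 2 list, 11 of 20 passed with a median of 0.75, and of the osteoclast-like list 7 of 13 were lower with a median of -0.63 (9% of all genes were lower). Levels of type 2 genes were low in these tumours. Ccl24 had a median of 46.9 normalized counts after tretinoin and 21.5 after PBS, Chil3 one of 76.9 and 23.7, and Il13 one of 5.86 and 2.83, against responder medians of 448, 1037 and 93.7.

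**Figure D5:**
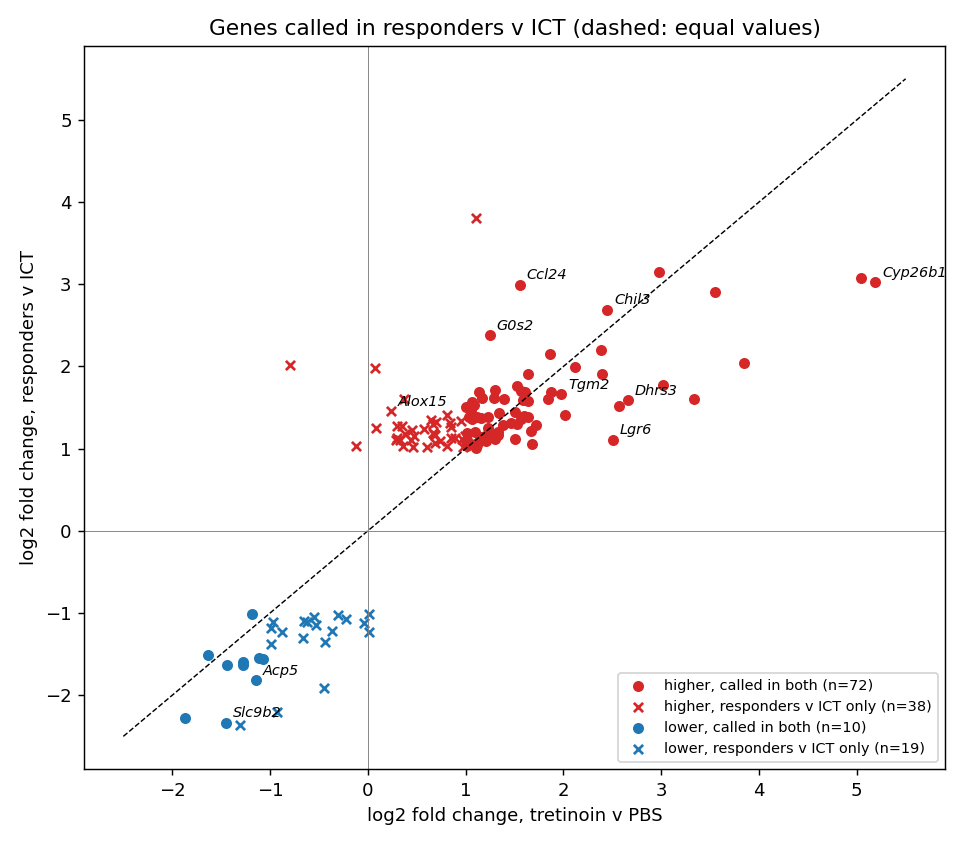
Log2 fold changes of the 139 called genes that were tested in both comparisons, responders v ICT (y axis) against tretinoin v PBS (x axis), which share no tumours. Filled points (72 higher and 10 lower) were called in both, the dashed line marks equal values, and Cyp26b1, Dhrs3 and Lgr6 lie furthest to the right below it among the labelled genes.

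Whether the 2 log2 differences were unequal was tested in 1 fit over 35 tumours. Of 15245 genes, 6 had a higher (0.0394%) and 26 a lower (0.171%) signed log2 difference, 32 in all (0.21%), for responders over ICT than for tretinoin over PBS at an edgeR adjusted p below 0.05. The genes also called in responders were all higher in both comparisons and had the smaller difference in responders, namely Cyp26b1 (a log2 difference of -2.16 with a standard error of 0.29, edgeR adjusted p = 5.58e-05), Dhrs3 (-1.07, standard error 0.13, edgeR adjusted p = 5.72e-06) and Lgr6, a stem cell receptor whose call in responders was lost without AB24 (-1.40, standard error 0.28, edgeR adjusted p = 0.0235). Cyp26b1 had 4402 to 6986 normalized counts after tretinoin alone and 2063 to 3110 in responders, while PBS tumours had 101 to 213 and ICT tumours 118 to 603. The medians were 5796 and 153 without ICT and 2647 and 290 with it. For Dhrs3 the range was 4679 to 5928 after tretinoin alone and 3003 to 3728 in responders. None of the type 2, interferon-gamma or osteoclast-like genes named above passed this test, Ccl24 and Alox15 having differences of 1.44 and 1.22 (edgeR adjusted p = 0.416 and 0.333).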

How the data were processed

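RNA of 39 whole AB1-HA tumours, each from its own mouse by the series' design, was sequenced by the authors as single-end reads of 100 bases on 1 flow cell. The authors aligned them with HISAT2 2.0.4 (bcl2fastq 2.20.0.422 is also named in the submitters' processing notes) to a genome called mm11 in the methods. Gene-level raw counts were made with SummariseOverlaps and deposited by the authors without normalization. Strand mode and the handling of multimapping reads are not given in the sources used here, so overlapping and antisense genes cannot be separated. Of 39676 identifiers, 36719 (92.55%) match GENCODE M21 on GRCm38, the source of the coordinates.

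Here, R 4.3.3 with edgeR 4.0.16 was used (TMM, filterByExpr, quasi-likelihood test on the 2 groups compared), and calls needed an adjusted p (Benjamini-Hochberg) below 0.05 with a log2 fold change of 1 or more in size, as in the study. The study used DESeq2, which was an alternative here (version 1.42.0). Standard errors are the log2 fold change over the square root of F. Normalized counts use median-of-ratios size factors over 39 tumours. Lists were counted at an adjusted p below 0.05 alone, and p-values measure the spread between these tumours. The fits were checked on simulated data. Principal components used log2 CPM with a prior count of 2.

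Genes were named by a rule: in each direction, the 12 called genes that changed most among those with a mean log2 CPM of at least 1 and a proper symbol. Added to these were the members of 35 gene lists and the genes called both in the interaction and in responders against ICT. Nrip1, Hic1, Cish, Socs2, Pim1, Bcl3, Irf4, Batf2 and Il21r were singled out after their values were seen. The members and lists were chosen with earlier results of these data known. Listed genes not found in the table were not analysed here. A few listed genes are not reported here. Alternatives were DESeq2, its size factors, other count filters, no fold change minimum, all tumours in 1 fit, pairs of name series, and tumours left out. The list counts without AB63 and AB82 and without AB43 were added after seeing the data.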

Additional observations from a re-analysis of the deposited data

Results flagged for a closer look

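Of 222 groups of 4 to 10 tumours tested for a single value far from the rest (Dixon's test at its 95% limit), 20 held one, and chance gives about 1 in 20. Values are normalized counts. ICT tumour AB63 was the highest of its group for Ccl24 (139, the others at most 72.6), Il13 (51.15, at most 27.0), Ccl11 (2168, at most 1167), Il5 (15.57, at most 9.57), Il1a (106.7, at most 49.0), Cd274 (9604, at most 4492), Spic (64.49, at most 38.0) and Ccl6 (10070, at most 5783). ICT tumour AB85 was the highest for Hic1 (2075, at most 1355).

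Among responders, AB43 was the lowest for Ccl22 (933.7, the others at least 1742) and Wt1 (20.04, at least 75.1), AB24 was the highest for Lgr6 (246, at most 129), and AB45 had the highest total count (37951183, at most 23315096). Among the 4 non-responders, AB44 was the highest for Chil3 (1272), Mgl2 (2460) and Cish (607.5), AB25 for Il1a (109.1) and Egr2 (652.2), and AB23 for Tbx21 (180.7), while AB21 was the lowest for Cyp26b1 (970.4, at least 2077).

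The difference of responders from ICT tumours was smaller than that of tretinoin from PBS, by the edgeR interaction test, for Dhrs3 (-1.071 on the log2 scale), Cyp26b1 (-2.161) and Lgr6 (-1.402).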

How the results depend on the processing

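Genes called higher and lower in responders than in ICT tumours (128 and 30) numbered 203 and 53 with DESeq2, 480 and 300 without the fold change minimum and 316 and 60 with all 39 tumours fitted together. With at least 10 counts in every tumour 78 were higher. Without AB63 and AB82 they were 501 and 63, and leaving out each tumour gave 79 to 348 and 9 to 56. Between name series they were 19 and 0 (2 against 6), 9 and 0 (2 against 8), 29 and 5 (4 against 6) and 13 and 2 (4 against 8), with 2 to 5 tumours a side. Non-responders against ICT had 22 and 5 with DESeq2 and 38 and 1 without the minimum. Responders against non-responders had 107 and 13 with DESeq2, and 0 to 187 and 0 to 26 with a tumour left out. Tretinoin against PBS had 49 lower with DESeq2, 56 lower without the count filter, and 1681 and 1290 without the minimum. The interaction had 18 and 71 with DESeq2, 2 and 12 without the count filter, and 1 and 3 with a fold change minimum. The log2 fold change of Cd8a turned to -0.0083 with DESeq2, -0.0042 with its size factors, and -0.29 and -0.41 for series 4 against 6 and 8, ranging from -0.19 to 0.38 with a tumour left out. That of Foxp3 turned to -0.078 and -0.053 for series 2 against 6 and 8, and ranged from -0.14 to 0.25 with a tumour left out. Neither gene passed the test with all tumours. The cause was not tested. Genes at low counts, such as Il5 and Oscar, are limited by depth.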
